A study of Mus musculus with 8 samples.

Results

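The genes described here are 10 mouse genes of the endoplasmic reticulum (ER) folding machinery and of the unfolded protein response: *Hspa5*, *Hsp90b1*, *Calr*, *Dnajb9*, *Sdf2l1*, *Pdia3*, *Pdia4*, *Pdia6*, *Xbp1* and *Herpud1*. They were chosen by symbol, and each had 1 entry on a main chromosome, out of 50902 genes. RNA was sequenced from E14 mouse ESCs, an embryonic stem cell line, cultured in N2B27 medium with LIF and 2i. All cells were transfected with siRNA against *Baz2a* and collected 3 days later. ESC + F/H-BAZ2Ar WT carried Flag- and HA-tagged wild-type BAZ2A resistant to the siRNA, and ESC + F/H-BAZ2Ar ΔTAM carried the same tagged and resistant protein without its RNA-binding TAM domain. They are called BAZ2A WT and BAZ2A ΔTAM below, with 4 libraries each. Both transgenes had been inserted with the piggyBac transposase, and clones grown from single cells had been picked for transgene levels like those of endogenous BAZ2A, so the effect of the deletion and a difference between independently derived lines cannot be told apart. Neither the labels nor the methods say whether the 4 libraries of a line came from separate cultures, so p-values measure only the spread between these libraries, which may be technical.

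Proteins that enter the ER are folded there by chaperones and by enzymes that form disulfide bonds, and those that fail are returned to the cytosol for degradation. When unfolded proteins accumulate, the membrane sensors IRE1, PERK and ATF6 are activated. IRE1 splices *Xbp1* mRNA, ATF6 is cut into a free transcription factor, and PERK slows translation while ATF4 protein is made. XBP1 and ATF6 raise the transcription of ER chaperone, disulfide isomerase and degradation genes, many through the ER stress response element in their promoters. Mouse embryos without *Hspa5* die around implantation with a loss of cells of the inner cell mass, the tissue from which ESCs are derived.

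The expression of the 10 genes did not move in 1 direction between the lines. *Hspa5*, *Calr*, *Xbp1* and *Pdia4* rose in BAZ2A ΔTAM, by 34.2%, 26.9%, 24.9% and 15.1% of their mean RPKM in BAZ2A WT, whereas *Herpud1* fell by 40.3%. The other 5 genes did not pass the test. Calls were made with limma at an adjusted p under 0.05, with Benjamini-Hochberg adjustment over the 9000 genes that averaged 0.1 RPKM or more, and 35.8% of those genes were called, 19.9% higher and 15.9% lower. Against this background, 4 of 10 members were higher and 1 of 10 was lower. The groups did not overlap for 5 of the 10 members, against 37.2% of all genes. A log2 fold of 0.58 or more in either direction together with an unadjusted p under 0.05, the threshold of the study, was reached by 1 member, *Herpud1*, against 3.79% of all genes. On the scale of log2(RPKM + 0.1), the median log2 fold change was 0.15 over the members and 0.011 over all genes tested, and the median absolute change was 0.30 and 0.13. When limma voom was applied to reads recovered from the RPKM, where 43.9% of 12657 genes were called (21.9% higher and 21.9% lower), 6 members were higher and 2 lower.

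The libraries held 6560881 to 8662855 reads on genes, and the members had between 70 and 6383 reads in a library. *Baz2a*, whose reads come from the transgene as well as from what remained of the endogenous mRNA, ranged from 9.95 to 11.2 RPKM in BAZ2A WT and from 17.0 to 18.9 RPKM in BAZ2A ΔTAM. This was a log2 fold change of 0.79 (adjusted p = 3.4e-05, limma). The paper reports similar BAZ2A levels in both lines by western blot. An effect of this difference in *Baz2a* RNA cannot be told apart from that of the deletion. All 8 ESC markers examined, *Pou5f1*, *Nanog* and *Sox2* among them, were expressed, and their summed level was 87.5 to 90.1 RPKM in BAZ2A WT and 74.5 to 80.3 RPKM in BAZ2A ΔTAM, with 4 of the 8 lower and 0 higher. Over all genes tested, 15.9% were lower and 19.9% higher, the shares to read all marker counts against. The 12 primitive endoderm markers, 9 of them under 0.1 RPKM, summed to 1.37 to 1.46 RPKM and to 1.05 to 1.17 RPKM. Of the 3 tested, 2 were lower and 1 higher, and the most abundant, *Sparc*, had a mean of 0.808 RPKM over all libraries. The 8 fibroblast markers stayed at or under 0.0187 RPKM in sum in BAZ2A WT and 0.0332 RPKM in BAZ2A ΔTAM, with *Col3a1*, *Dcn* and *Lum* at 0 in all libraries. The 6 trophoblast markers summed to 0.412 to 0.463 RPKM and to 0.367 to 0.567 RPKM, with 1 of the 2 tested lower and 0 higher. The part of these differences in the results was not tested, and in bulk RNA a change in the number of cells of a type cannot be told apart from a change of RNA per cell.

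The promoters of the genes differed in the elements they held. The ER stress response element, CCAAT followed by CCACG with 9 bases in between, was searched on both strands in the RefSeq promoter windows (GRCm38.p6), which run from 250 bases before to 50 bases after the transcription start and were matched by symbol for all 10 members. The RefSeq start is not the edge of the span in the deposited annotation: it lies 120 bases inside the span of *Hspa5*, 65 inside that of *Hsp90b1*, 44 inside that of *Pdia6*, 3 inside that of *Calr*, 127 inside that of *Pdia3* and 258 inside that of *Dnajb9*, so more of these windows lies within the span given for the gene. For *Herpud1*, *Xbp1* and *Pdia4* it lies before the span, and for *Sdf2l1* both are the same base. Distances below are from the RefSeq start. It was present in *Hspa5*, *Hsp90b1*, *Calr* and *Pdia6*, against 39 of 32851 windows of all genes (0.119%). These stretches are shown because they hold the element through which XBP1 and ATF6 are known to act. Capitals mark the CCAAT and CCACG parts, which read as ATTGG and CGTGG where the element is on the opposite strand, and each stretch is written 5′ to 3′ on the strand of its gene. The element of *Hspa5* lay 65 to 47 bases before the start, on chr2:34772005-34772063 of the plus strand. *Hsp90b1* had a distal copy 212 to 194 bases before the start, on chr10:86705618-86705676 of the minus strand, and a proximal copy, on the opposite strand, 107 to 89 bases before it, on chr10:86705513-86705571. That of *Calr*, also in the opposite orientation, lay 162 to 144 bases before the start on chr8:84847055-84847113 of the minus strand, and that of *Pdia6* 98 to 80 bases before it on chr12:17266471-17266529 of the plus strand.
Hspa5: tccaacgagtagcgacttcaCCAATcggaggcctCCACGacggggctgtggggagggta
Hsp90b1 distal: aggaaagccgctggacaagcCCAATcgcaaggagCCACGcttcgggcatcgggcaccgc
Hsp90b1 proximal: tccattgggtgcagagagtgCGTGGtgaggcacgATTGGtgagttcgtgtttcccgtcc
Calr: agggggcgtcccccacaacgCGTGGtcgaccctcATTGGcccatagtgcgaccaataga
Pdia6: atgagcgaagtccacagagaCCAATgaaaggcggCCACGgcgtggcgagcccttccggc

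*Herpud1*, the member that fell, held other elements. The second form of the ER stress response element, ATTGG and CCACG with 1 base in between, was found 52 to 42 bases before its start, on chr8:94386357-94386407 of the plus strand, and in 12 of the 32851 windows (0.0365%). A match to TGATGNAAN, the composite site bound by C/EBP proteins with ATF4, lay 112 to 105 bases before the start on the opposite strand, on chr8:94386297-94386344 (its letters appear there as the reverse complement), and was present in 3.95% of all windows. Capitals mark the fixed letters of each element.
Herpud1, ER stress response element II: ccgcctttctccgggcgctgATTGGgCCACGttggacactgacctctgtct
Herpud1, C/EBP-ATF site: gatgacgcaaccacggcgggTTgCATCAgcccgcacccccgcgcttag

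The letters TGACGTGG, a site of XBP1 and ATF6 present in 0.676% of windows, were found in 0 of the 10 members. None of the elements was found in the windows of *Pdia3*, *Pdia4*, *Xbp1*, *Sdf2l1* and *Dnajb9*. A match describes letters in the window only, and copies that differ from the letters searched for are not counted. ATTGG is the reverse complement of CCAAT, so the searches for the first and second form share that part.

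*Hspa5* encodes BiP, the HSP70 chaperone of the ER lumen, which also holds the sensors inactive. It lies on chromosome 2 of mm10 from 34771970 to 34777547. In replicates 1 to 4 of BAZ2A WT it had 9.06, 9.64, 10.4 and 10.1 RPKM, and in those of BAZ2A ΔTAM 12.7, 13.2, 13.2 and 13.5 RPKM. Each BAZ2A ΔTAM library was above each BAZ2A WT library, and the rise was the largest among the members in both fits. The means were 9.81 ± 0.581 RPKM (SD, n = 4) and 13.2 ± 0.352 RPKM (SD, n = 4), a log2 fold change of 0.42 (standard error 0.045, 95% confidence interval 0.32 to 0.53, adjusted p = 0.000369, limma).

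*Calr* encodes calreticulin, a calcium-binding lectin chaperone for glycoproteins, on chromosome 8 from 84841850 to 84846934. It had 16.7, 16.8, 17.7 and 17.3 RPKM in BAZ2A WT and 20.3, 22.6, 22.5 and 21.6 RPKM in BAZ2A ΔTAM. The groups did not overlap, and the lowest BAZ2A ΔTAM library was replicate 1. The means of 17.1 ± 0.466 and 21.7 ± 1.07 RPKM (SD, n = 4 each) differed by 0.34 on the log2 scale (standard error 0.039, interval 0.25 to 0.43, adjusted p = 0.000564, limma).

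*Hsp90b1* encodes GRP94, the HSP90 chaperone of the ER, on chromosome 10 from 86690209 to 86705509. Its levels were 5.79, 5.72, 5.95 and 6.21 RPKM in BAZ2A WT and 6.69, 6.07, 6.31 and 6.55 RPKM in BAZ2A ΔTAM. The groups overlapped, since replicate 2 of BAZ2A ΔTAM was below replicate 4 of BAZ2A WT. The log2 fold change was 0.11 (standard error 0.039, interval 0.021 to 0.20), with an adjusted p of 0.0594 in limma, above the threshold. Without BAZ2A WT replicate 4 the adjusted p was 0.0353, without BAZ2A ΔTAM replicate 2 it was 0.0337, with the filter at 1 RPKM it was 0.0487, and with voom it was 0.00986 at a log2 fold change of 0.12. In 14 other settings the gene stayed uncalled, with an adjusted p of up to 0.189 (limma). Only 2 of the 8 fits without 1 library called it. The span of *Hsp90b1* also contains *Gm15344* on the same strand and part of the pseudogene *1810014B01Rik* on the other strand. These had at most 41 and 56 reads in a library, against 4068 or more for *Hsp90b1*.

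The co-chaperones had fewer reads and wider spreads. *Dnajb9* encodes ERdj4, a J-domain partner of BiP, on chromosome 12 from 44205559 to 44210326. It had 0.295, 0.383, 0.366 and 0.415 RPKM in BAZ2A WT and 0.534, 0.445, 0.519 and 0.394 RPKM in BAZ2A ΔTAM. Only replicate 4 of BAZ2A ΔTAM lay within the range of BAZ2A WT. The log2 fold change was 0.30 (standard error 0.11, interval 0.057 to 0.55) and the adjusted p 0.0585 in limma. With 70 to 132 reads in a library, the coefficient of variation between BAZ2A WT libraries was 14.0%, against 10.8% from counting alone. The adjusted p was 0.0493 without BAZ2A WT replicate 4, 0.0321 without BAZ2A ΔTAM replicate 4, and 0.0234 with voom at a log2 fold change of 0.36. A pseudocount of 1 RPKM reduced the change to 0.11, and in 6 of the 8 fits without 1 library the gene was not called.

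*Sdf2l1*, which encodes a component of ER chaperone complexes that works with J-domain proteins, lies on chromosome 16 from 17130138 to 17132383. It had 1.98, 1.85, 1.75 and 1.48 RPKM in BAZ2A WT and 1.14, 1.73, 1.39 and 1.30 RPKM in BAZ2A ΔTAM. Its estimate was opposite in sign to those of *Hspa5* and *Dnajb9*, but the groups overlapped through replicate 4 of BAZ2A WT and replicate 2 of BAZ2A ΔTAM. The log2 fold change was -0.33 (standard error 0.13, interval -0.63 to -0.028, adjusted p = 0.0840, limma). The adjusted p was 0.0488 without BAZ2A WT replicate 4, 0.0233 without BAZ2A ΔTAM replicate 2, 0.0405 after quantile normalization and 0.0106 with voom, where the log2 fold change was -0.35. A pseudocount of 1 RPKM reduced the change to -0.21, and in 6 of the 8 fits without 1 library the gene was not called. *Sdf2l1* had 116 to 221 reads in a library, and its coefficient of variation was 11.9% in BAZ2A WT and 17.4% in BAZ2A ΔTAM, against 7.12% and 8.13% from counting.

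Of the protein disulfide isomerases, which form and rearrange disulfide bonds in folding proteins, *Pdia4* passed the test and *Pdia3* and *Pdia6* did not, and the difference between them was not tested. *Pdia4* encodes ERp72 on chromosome 6 from 47796141 to 47813430 and had 1.97, 1.87, 2.00 and 1.89 RPKM in BAZ2A WT and 2.12, 2.23, 2.32 and 2.22 RPKM in BAZ2A ΔTAM. Its groups did not overlap, and it rose with a log2 fold change of 0.19 (standard error 0.034, interval 0.11 to 0.27, adjusted p = 0.00381, limma). *Pdia3*, on chromosome 2 from 121413775 to 121438687, encodes ERp57, which works on glycoproteins held by calreticulin and calnexin. It had 2.84, 2.85, 2.89 and 2.88 RPKM in BAZ2A WT and 2.85, 3.03, 3.07 and 3.02 RPKM in BAZ2A ΔTAM. Replicate 1 of BAZ2A ΔTAM lay among the BAZ2A WT libraries and the other 3 above them. The log2 fold change of *Pdia3* was 0.061 (standard error 0.027, interval -0.0030 to 0.12, adjusted p = 0.124, limma). Without BAZ2A ΔTAM replicate 1 the change was 0.083 with an adjusted p of 0.0226, the only 1 of the 8 fits without 1 library that called the gene. Quantile normalization reduced the change to 0.014. *Pdia6* encodes P5, an isomerase that associates with BiP, on chromosome 12 from 17266545 to 17284770. It had 2.71, 2.72, 2.74 and 2.63 RPKM in BAZ2A WT and 2.74, 2.73, 2.77 and 2.66 RPKM in BAZ2A ΔTAM. The groups overlapped over most of their range. Its log2 fold change was 0.011 (standard error 0.024, interval -0.043 to 0.066, adjusted p = 0.741, limma), and turned to -0.015 after quantile normalization and to -0.00030 without BAZ2A WT replicate 4.

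*Xbp1*, the transcription factor gene of the set, lies on chromosome 11 from 5520659 to 5525893. It had 2.04, 2.09, 1.99 and 2.00 RPKM in BAZ2A WT and 2.52, 2.55, 2.53 and 2.54 RPKM in BAZ2A ΔTAM. The groups were well apart, and the 4 BAZ2A ΔTAM libraries lay closer together than counting alone gives, with a coefficient of variation of 0.476% against 3.90%. *Xbp1* rose with a log2 fold change of 0.31 (standard error 0.023, interval 0.25 to 0.36, adjusted p = 9.0e-05, limma), and with voom the change was 0.32 with a standard error of 0.046. Values per gene do not separate the spliced from the unspliced mRNA, so the activity of IRE1 was not measured.

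*Herpud1* encodes HERP, an ER membrane protein of the degradation complex around the ubiquitin ligase HRD1, on chromosome 8 from 94386438 to 94395377. It had 0.585, 0.626, 0.618 and 0.574 RPKM in BAZ2A WT and 0.364, 0.398, 0.342 and 0.329 RPKM in BAZ2A ΔTAM. All BAZ2A ΔTAM libraries were below all BAZ2A WT libraries, with 147 to 171 reads against 260 to 288. The log2 fold change was -0.61 (standard error 0.051, interval -0.73 to -0.50, adjusted p = 0.000127, limma). Because the pseudocount of 0.1 RPKM is not small beside this level, the change is larger on recovered reads, where voom gave -0.75 (adjusted p = 7.5e-08), and a pseudocount of 1 RPKM reduced it to -0.24. The antisense gene *Gm15890*, which overlaps its start, was listed at 0 in all libraries.

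**Figure D1:**
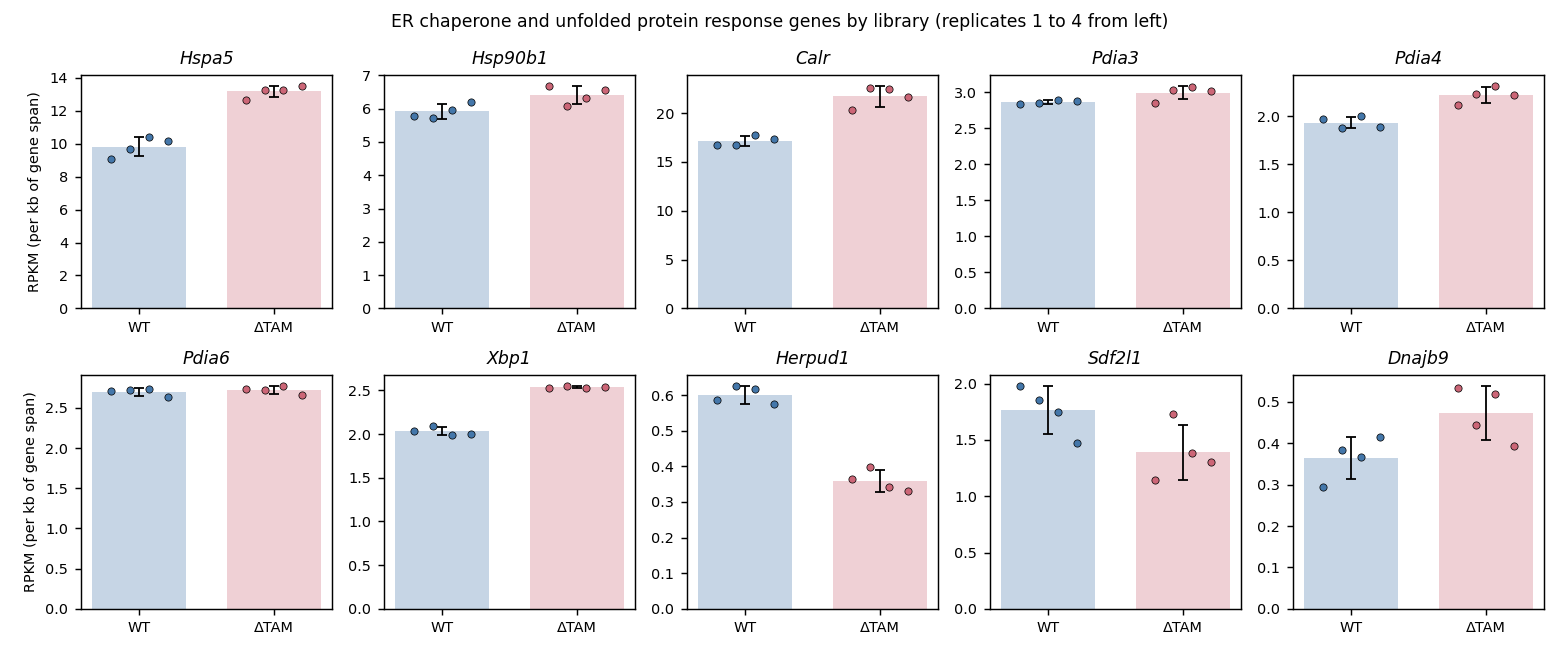
RPKM (per kb of gene span, vertical axis from 0) of the 10 genes in the libraries of BAZ2A WT (blue) and BAZ2A ΔTAM (red), where points are libraries, bars are means and error bars are SD (n = 4). The groups are apart for *Hspa5*, *Calr*, *Pdia4*, *Xbp1* and, in the other direction, *Herpud1*, and overlap for the other 5 genes.

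**Figure D2:**
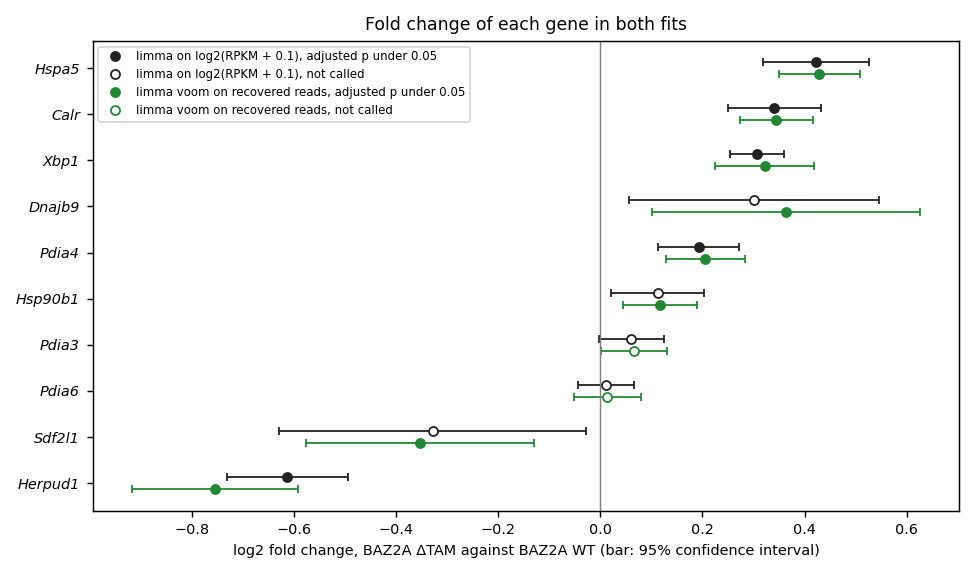
Log2 fold change of BAZ2A ΔTAM against BAZ2A WT for each gene, with 95% confidence intervals, from limma on log2(RPKM + 0.1) in black and from limma voom on recovered reads in green, filled where the adjusted p was under 0.05. Estimates run from -0.61 for *Herpud1* to 0.42 for *Hspa5* in the first fit, and *Hsp90b1*, *Dnajb9* and *Sdf2l1* are called in the second fit only.

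The calls of *Hspa5*, *Calr*, *Pdia4*, *Xbp1* and *Herpud1* were kept in each of the 8 fits that left out 1 library. Across all alternative settings, the log2 fold change ranged from 0.36 to 0.45 for *Hspa5*, from 0.29 to 0.37 for *Calr*, from 0.14 to 0.21 for *Pdia4* and from 0.22 to 0.32 for *Xbp1*.

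Levels of different genes were compared as recovered reads per kilobase of exon per 1000000 reads on genes, because the deposited RPKM divide by the whole span and so lower genes with long introns. Exons make up 75.8% of the span of *Hspa5* but 12.6% of that of *Pdia3*. On this scale *Calr* was the highest in BAZ2A WT, with 203 ± 5.75 (SD, n = 4), followed by *Pdia3* with 153 ± 1.62 and *Hsp90b1* with 151 ± 6.01, which overlapped each other. *Pdia4* followed with 93.5 ± 2.84, *Pdia6* with 88.3 ± 1.29 and *Hspa5* with 86.9 ± 5.23, and *Hspa5* overlapped both. *Sdf2l1* with 24.0 ± 2.86 and *Xbp1* with 22.0 ± 0.454 overlapped, *Herpud1* was at 15.5 ± 0.598 and *Dnajb9* was lowest at 4.58 ± 0.640. Of 24479 genes with an exon length and this level, 99.4% were below *Calr* and 68.9% below *Dnajb9*.

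In BAZ2A ΔTAM the order changed. *Calr* was again highest at 257 ± 11.4, and *Hsp90b1* at 163 ± 7.67 and *Pdia3* at 159 ± 4.35 overlapped. *Hspa5* moved from rank 6 to rank 4, at 116 ± 2.72, above *Pdia4* at 107 ± 3.42 in every library. *Xbp1* at 27.4 ± 0.130 was above *Sdf2l1* at 18.9 ± 3.28 without overlap. *Herpud1* was at 9.20 ± 0.768 and *Dnajb9* at 5.93 ± 0.834. Together the 10 genes took 0.269% to 0.280% of the reads on genes in BAZ2A WT and 0.307% to 0.316% in BAZ2A ΔTAM, a sum led by the most abundant members.

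**Figure D3:**
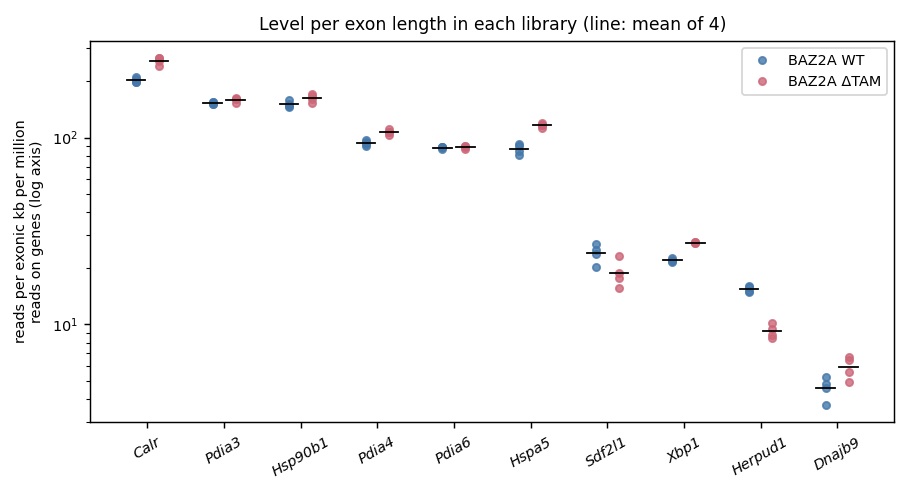
Recovered reads per exonic kb per 1000000 reads on genes (log axis) for each gene in order of its BAZ2A WT mean, where points are libraries and lines are means of 4. Levels span from 4.58 for *Dnajb9* to 203 for *Calr* in BAZ2A WT, and *Hspa5* lies with *Pdia6* and *Pdia4* in BAZ2A WT and above them in BAZ2A ΔTAM.

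Other genes of the ER folding machinery were called in both directions, as were genes over the whole table (19.9% higher, 15.9% lower). Of 35 other genes for ER chaperones, co-chaperones, oxidoreductases, prolyl isomerases and glycoprotein folding, 27 were tested, 5 rose and 7 fell, with a median log2 fold change of 0.0062. Voom called 5 higher and 11 lower of 35, against 21.9% each way over all genes. The 5 that rose became 3 without BAZ2A WT replicate 1, 3 or 4 or BAZ2A ΔTAM replicate 2 or 4. *Ppib*, which encodes the ER cyclophilin B, rose the most, from a range of 1.54 to 1.70 RPKM to one of 1.94 to 2.31 RPKM (log2 fold change 0.39, adjusted p = 0.00155, limma). *Fkbp11*, a gene for another prolyl isomerase, fell from 0.578 to 0.751 RPKM to 0.397 to 0.507 RPKM (log2 fold change -0.49, adjusted p = 0.00614). *P4hb*, which encodes the classical protein disulfide isomerase, rose with a log2 fold change of 0.16 (adjusted p = 0.0151), and *Manf*, which encodes a BiP-binding protein, with 0.20 (adjusted p = 0.00506). *Canx*, the gene of the membrane-bound relative of calreticulin, fell with a log2 fold change of -0.077 (adjusted p = 0.0467), a call that was lost in all 8 fits without 1 library, where the change was between -0.087 and -0.059. The call was also lost without a filter, with median-ratio or quantile scaling, and with eBayes without trend or robust (adjusted p of 0.0503 to 0.0625, limma). The values of *Hyou1*, *Dnajc3* and *Creld2*, which encode a nucleotide exchange factor and a J-domain partner of BiP and an ER chaperone-like protein, were 0.026, 0.096 and 0.065, with adjusted p of 0.492, 0.134 and 0.370. With each library left out, they ranged from 0.011 to 0.045, from 0.066 to 0.13 and from 0.016 to 0.094. A pseudocount of 1 RPKM reduced *Dnajc3* to 0.023 and *Creld2* to 0.037. The element CCAAT and CCACG with 9 bases in between was found in 4 of the 28 genes of this list with a promoter window, *Canx*, *Dnajc3*, *Creld2* and *Ero1b*.

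Of 27 genes of ER-associated degradation other than *Herpud1*, 25 were tested, 3 fell and 0 rose, against 15.9% lower and 19.9% higher over all genes, with a median of 0.017. At an unadjusted p under 0.05, for which no share over all genes was taken, 6 were lower and 3 higher. Voom called 3 lower and 2 higher of 27, against 21.9% each way over all genes. Without BAZ2A WT replicate 3 or BAZ2A ΔTAM replicate 1 or 4, 1 was called higher. *Edem2*, which encodes a lectin that marks misfolded glycoproteins for degradation, had the largest decrease (log2 fold change -0.32, adjusted p = 0.00312, limma).

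The sensor genes have long introns, so their RPKM per span are low although they had 177 to 416 reads in a BAZ2A WT library. In recovered reads per kilobase of exon per 1000000 reads on genes, *Ern1* was at 3.21 ± 0.252, *Atf6* at 5.54 ± 0.427 and *Eif2ak3* at 5.84 ± 0.435 in BAZ2A WT (SD, n = 4 each), and at 3.76 ± 0.211, 5.39 ± 0.422 and 6.07 ± 0.449 in BAZ2A ΔTAM. On this scale their means lay around that of *Dnajb9* and below those of the other members. In RPKM, *Ern1*, which encodes IRE1α, had 0.0390 to 0.0464 RPKM in BAZ2A WT and 0.0468 to 0.0522 RPKM in BAZ2A ΔTAM. *Atf6* had 0.0414 to 0.0495 RPKM and 0.0416 to 0.0495 RPKM, and *Eif2ak3*, the PERK gene, 0.0806 to 0.0926 RPKM and 0.0845 to 0.0995 RPKM. All of them were under the RPKM filter. In voom, *Ern1* had a log2 fold change of 0.23 (adjusted p = 0.0192), *Atf6* of -0.040 (adjusted p = 0.672) and *Eif2ak3* of 0.069 (adjusted p = 0.480). When the RPKM fit was run without a filter, the adjusted p of *Ern1* was 0.167. Of the 11 sensors, their proteases and related membrane transcription factors, 4 were tested in limma on RPKM and 0 called, against 35.8% of all genes. At an unadjusted p under 0.05, for which no share over all genes was taken, 1 was higher. Voom called 3 of 10 higher and 1 lower, against 21.9% each way over all genes. Without BAZ2A WT replicate 1, 1 was called higher in limma.

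In the PERK and ATF4 arm, 12 of 16 genes were tested, 10 fell and 0 rose, against 15.9% lower and 19.9% higher over all genes, with a median log2 fold change of -0.38. Of the 12, 4 were past the fold of 0.58, against 3.79% of all genes. Voom called 13 of 15 lower and 0 higher, against 21.9% each way over all genes. *Atf4* fell from a range of 27.6 to 30.8 RPKM to one of 23.2 to 26.1 RPKM (log2 fold change -0.25, adjusted p = 0.00431, limma). *Chac1*, which encodes a glutathione-degrading enzyme, fell from 1.93 to 2.48 RPKM to 0.744 to 0.874 RPKM (-1.26, adjusted p = 5.2e-05), and *Asns*, the asparagine synthetase gene, from 10.5 to 11.0 RPKM to between 6.17 and 6.60 RPKM (-0.74, adjusted p = 5.6e-06). *Ddit3*, which encodes CHOP, had 0.328 to 0.500 RPKM and 0.231 to 0.319 RPKM, a difference of -0.38 on the log2 scale (adjusted p = 0.0430, limma), and this call was lost in 7 of the 8 fits without 1 library, with changes between -0.46 and -0.30. TGATGNAAN, the C/EBP-ATF site, was present in the promoter windows of 7 of the 15 genes of this list that had a window, against 3.95% of all windows. These were *Trib3*, *Asns*, *Chac1*, *Atf3*, *Nupr1*, *Vldlr* and *Slc7a11*. The site was found in 1 of 28 genes of the ER folding list and 1 of 20 of the degradation list. Because the genes of this arm were listed for their known roles, the count is not a test. Whether the site acts on *Herpud1* was not tested. No difference between the ER chaperone genes and this arm was tested, and the activity of PERK was not measured.

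For genes of other steps at the ER and for chaperones outside it, the shares over all genes to read the counts against are again 19.9% higher and 15.9% lower. In translocation and signal peptide cleavage, 2 of 17 tested genes rose, *Srpr* of the signal recognition particle receptor (log2 fold change 0.26) and *Tram1* of the translocon (0.25), and 1 fell, with a median of 0.043. The count of those that fell was 0 without BAZ2A WT replicate 1 or BAZ2A ΔTAM replicate 3 or 4 and 2 without BAZ2A WT replicate 4. Among the 11 tested genes of the oligosaccharyltransferase, which attaches glycans to entering proteins, 5 fell and 2 rose, with a median of -0.12. Without BAZ2A WT replicate 1, 3 fell and 1 rose, and the count that rose was 1 without BAZ2A ΔTAM replicate 2 or 3 and 0 without BAZ2A WT replicate 3 or BAZ2A ΔTAM replicate 4. *Rpn1*, a subunit gene, fell from 2.08 to 2.19 RPKM to 1.60 to 1.75 RPKM (-0.31, adjusted p = 0.000319), and *Ost4*, the gene of its smallest subunit, rose with a log2 fold change of 0.51 (adjusted p = 0.0301), a call lost in 5 of the 8 fits without 1 library, with changes between 0.39 and 0.62. Of 7 tested genes of ER calcium handling, 1 rose and 1 fell, *Itpr3* (0.17), a calcium channel gene, and *Rcn2* (-0.28), which encodes a calcium-binding protein, and 2 fell without BAZ2A ΔTAM replicate 1. Chaperones outside the ER were called higher in 6 and lower in 1 of 14 tested genes, with a median of 0.098, and in 2 lower without BAZ2A ΔTAM replicate 3. Among them, *Hspb1*, a small heat shock protein gene, rose with a log2 fold change of 0.68 (adjusted p = 8.3e-05) and *Hspa8*, the constitutive cytosolic relative of *Hspa5*, with 0.36 (adjusted p = 0.000225).

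**Figure D4:**
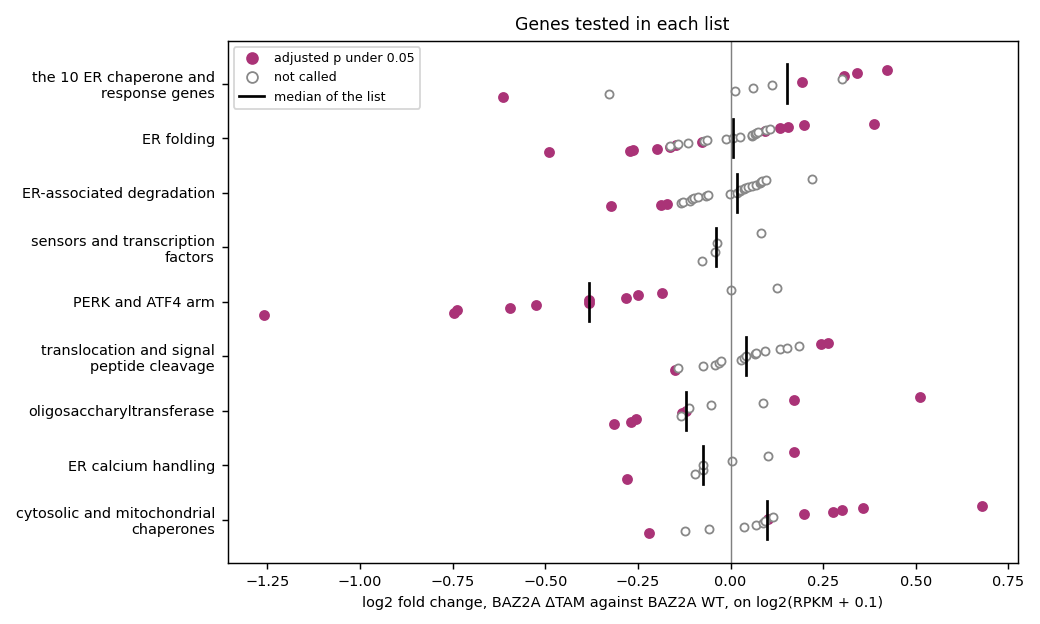
Log2 fold change of BAZ2A ΔTAM against BAZ2A WT for each tested gene of the 10 ER chaperone and response genes and of 8 other lists, filled where the adjusted p was under 0.05, with the median of each list as a black line. The median of the PERK and ATF4 arm is at -0.38, that of the 10 genes at 0.15, and the ER folding and degradation lists lie close to 0.

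The median profile of the 10 genes, taken over the 8 libraries after each gene was centred on its own mean of log2(RPKM + 0.1), is a description only, since the members moved in both directions. It was nearest to that of *Pdia4*, with a root mean square difference of 0.036, and farthest from *Herpud1* with 0.39 and *Sdf2l1* with 0.30. Among 2140 other genes that averaged 1 RPKM or more, *Rbm8a* (0.012), *Cdh1* (0.017) and *Bcas2* (0.018) were nearest to it, and had log2 fold changes of 0.14, 0.15 and 0.13.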

How the data were processed

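Poly(A)-selected stranded RNA-seq libraries, 4 of each line, were grouped by their labels. The authors trimmed the reads, mapped them to mm10 (STAR), took the exon coverage of each gene and deposited 1 RPKM value per gene and library. The annotation release, the strand setting and the handling of multiply mapped reads are not given in the sources used here, so values of overlapping genes are uncertain. The RPKM were found to be per kilobase of genomic span (introns included), and 99.5% to 99.6% of values were whole multiples, within 0.02, of what 1 read is worth, from which reads were recovered (7255618 to 7686802 on genes per library in BAZ2A WT, 6560881 to 8662855 in BAZ2A ΔTAM). Of 51288 entries, 386 repeats were set aside. Gene coordinates are the deposited ones. Exon lengths, strands and overlapping genes came from GENCODE vM21 (mm10). It held the symbols of 94.5% of the genes, and 90.6% of the genes had the same coordinates in it. Promoters came from RefSeq.

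The lines were compared with limma 3.58.1 (R 4.3.3) (lmFit, eBayes with trend, two-sided, no covariates) on log2(RPKM + 0.1), so the changes of low genes are understated, and p-values were adjusted over all genes tested. The members and lists were chosen with earlier results of these data known, and no list was tested as a set. The text names all members, 12 response genes and *Baz2a*, the 2 genes with the largest change among those called in each list, and the 3 genes nearest to the median profile, except 1 gene that is not reported here. Alternatives were pseudocounts of 0.01 and 1, a filter of 1 RPKM or none, scaling by median ratios or quantiles, eBayes without trend or robust, a replicate block, each library left out, and voom on recovered reads (genes averaging 10 or more). On reads simulated for the BAZ2A ΔTAM and BAZ2A WT comparison, the RPKM fit recovered 95.8% of 96 genes changed by a log2 fold of 1 and 41.1% of 95 changed by 0.25, with 11 false calls among 9014 genes, and voom 99.0% of 97 and 65.6% of 93, with 7 false calls among 12665. Python 3.11.15 was used for tables, motifs and figures.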

Additional observations from a re-analysis of the deposited data

Results flagged for a closer look

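In 78 groups of 4 libraries, those of the members and of the other genes chosen by the naming rule, the gap between the highest or lowest library and the next was compared with the range by Dixon's 95% critical value, which chance exceeds in about 1 in 20 groups. None of the 10 members had such a library. *Chac1* had 2.48 RPKM in BAZ2A WT replicate 3 against 1.93 to 2.01 RPKM in the other 3 (0.843 of the range), and *Rcn2* had 0.316 RPKM in BAZ2A ΔTAM replicate 3 against 0.272 to 0.276 RPKM (0.914 of the range). In the fits that omitted 1 library, *Chac1* stayed between -1.30 and -1.18 on the log2 scale and *Rcn2* between -0.32 and -0.25.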

How the results depend on the processing

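The count of higher members stayed between 4 and 6 under all settings tried. The count of lower members, 1, was 2 after quantile normalization and with voom, and 0 with the filter at 1 RPKM, since *Herpud1* is below that filter. With each library left out it was 1 to 2, being 2 without BAZ2A WT replicate 4 or BAZ2A ΔTAM replicate 2, where *Sdf2l1* was added. The log2 fold change of *Pdia6* was -0.015 after quantile normalization and -0.00030 to 0.023 with each library left out, below 0 without BAZ2A WT replicate 4. Over all genes, 590 were higher and 399 lower with the filter at 1 RPKM, where fewer genes are tested. With voom, where more are tested, 2773 were higher and 2778 lower, and the share called was also higher, 43.9% against 35.8%. In the 8 other lists, where 16 genes were higher and 28 lower, 28 were higher and 40 lower with voom. With the filter at 1 RPKM, 12 were higher and 18 lower. A pseudocount of 1 RPKM reduced the log2 fold changes of low genes by over 1.5 times without changing a call, to -0.77 for *Chac1*, -0.13 for *Ddit3*, -0.21 for *Fkbp11*, -0.085 for *Edem2*, 0.045 for *Manf*, 0.11 for *Srpr*, 0.12 for *Tram1*, 0.29 for *Ost4*, -0.089 for *Rcn2* and 0.067 for *Itpr3*, and *Manf* was at 0.30 with a pseudocount of 0.01 RPKM and 0.32 with voom. Replicate numbers were shared by the lines, but same-numbered libraries deviated together only weakly (r of 0.024 to 0.062) and 6 of 8 correlated best with their own number. With the number as a replicate block, 1557 genes were higher and 1239 lower, members stayed at 4 higher and 1 lower, and the other lists had 15 higher and 23 lower. The calls of *Ddit3* (adjusted p = 0.0883) and *Canx* (0.0736) were lost under the block, and those of the other named genes were not changed. Without a filter, the calls of *Ddit3* (adjusted p = 0.0966, limma), *Ost4* (0.0723) and *Canx* (0.0507) were lost. In the 8 lists together, with each library left out, 12 to 19 genes were higher and 21 to 27 lower. Of the members, *Dnajb9*, *Sdf2l1* and *Herpud1* had the fewest reads, 70 to 288 in a library.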
